A study of Ovis aries with 6 samples.

Results

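Lymphatic endothelial cells line the vessels that drain fluid and immune cells from a tissue. They are specified from venous endothelium by the transcription factor PROX1, grow in response to VEGF-C through the receptor FLT4 (VEGFR3), and guide dendritic cells and lymphocytes by secreting the chemokine CCL21. In the ovary, lymphatic vessels run through the medulla and around growing follicles and corpora lutea, where they return the fluid that leaks from the blood capillaries.

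In ovaries of 6 Hu ewes, 773 lymphatic endothelial cells were found among 38465 barcodes that passed the limits, which were at least 1000 unique molecular identifiers (UMI) and at most 10% of UMI in mitochondrial genes, and among 52290 deposited barcodes. A cell was counted as lymphatic when it held at least 3 UMI of MMRN1 (multimerin 1), at least 1 UMI of PROX1, and more UMI of MMRN1, PECAM1 and CDH5 together than of the stromal gene DCN and the leukocyte gene PTPRC together. The cells were thus chosen by their measured UMI of these 6 genes, whose levels are given as a description only. The ewes belonged to a high-reproduction group with litters of at least 3 lambs (HLS, 3 ewes) and a low-reproduction group with litters under 2 (LLS, 3 ewes), all slaughtered in oestrus. One ovary of each ewe was digested to single cells and sequenced as 1 droplet library with 3′ chemistry, so each ewe was 1 replicate and cells of 1 ewe shared their library.

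The libraries held 7992 to 9135 barcodes and 43329214 to 75549906 UMI each. HLS1, HLS2 and HLS3 gave 40, 132 and 57 lymphatic cells, and LLS1, LLS2 and LLS3 gave 217, 215 and 112. A lymphatic cell had a median of 6962 UMI and 2617 genes, against 9892 UMI and 3204 genes in blood endothelium. Of the deposited barcode sequences, 297 occurred in more than 1 library, and 6 lymphatic cells shared their sequence with a cell of another library, but no sequence was lymphatic in both. Doublet scores called 5.22% of all barcodes and 9.18% of the lymphatic cells (71 of 773).

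For comparison, 3 other endothelial classes were gated in the same ewes. Blood endothelium held at least 3 UMI of PECAM1 and CDH5, more than of DCN and PTPRC, and none of MMRN1 and PROX1 (10127 cells). SELP-positive endothelium was its subset with at least 2 UMI of P-selectin, a venous gene (2551 cells). PROX1-positive MMRN1-negative endothelium held at least 2 UMI of PROX1, the same endothelial balance and no MMRN1 (1973 cells), and was added after the data had been seen. UMI were summed over the cells of a class in each ewe and are given as counts per 1000000 UMI of that sum (CPM), as mean ± SD over 6 ewes unless stated otherwise. Since 1 UMI of a lymphatic sum was worth 0.392 CPM in LLS1 and 2.39 CPM in HLS1, low values were least precise in HLS1.

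The genes of the gate were as follows. MMRN1, a glycoprotein of lymphatic endothelium and platelets, had a median of 15 UMI per lymphatic cell (quartiles 8 and 25), and PROX1 a median of 9 UMI (quartiles 4 and 14). MMRN1 lay at 2032 ± 447 CPM and PROX1 at 1123 ± 268 CPM. PECAM1 was absent from 11 cells and CDH5, the adherens-junction cadherin, from 147, whereas 565 of the 773 cells held no DCN and 764 held no PTPRC.

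Genes that the gate did not use gave the cells a lymphatic profile. CCL21 lay at 2395, 9336 and 2104 CPM in HLS1, HLS2 and HLS3 and at 12037, 3353 and 6012 CPM in LLS1, LLS2 and LLS3, against 5.86 ± 2.37 CPM in blood endothelium. PDPN, the podoplanin that separates lymph from blood vessels by binding CLEC2 on platelets, ranged from 93.2 to 311 CPM in lymphatic cells, against 2.26 ± 1.33 CPM in blood endothelium. FLT4 ranged from 217 to 450 CPM, against 31.5 ± 28.1 CPM. The lymphatic and blood values of these 3 genes did not overlap. A lack of overlap, in either direction, was common, with 9 of 18 tested transcription factors and 8 of 18 tested matrix genes. Its share over all genes is not given here. CCL21 was detected in 80.5% of lymphatic cells and 5.51% of blood endothelial cells, and in 72.0% and 1.23% after each cell had been thinned to 2000 UMI, while the stroma, which should lack the gene, gave 1.31% on the thinned scale. On that scale PDPN was detected in 37.6% of lymphatic, 14.9% of stromal, 12.9% of granulosa and 0.261% of blood endothelial cells. PDPN thus set lymphatic cells apart from blood endothelium more than from stroma or granulosa cells. Against blood endothelium the label therefore matched its markers, although some markers used in human tissue were near 0. NTS and TFF3 had no UMI in 4 of the 6 lymphatic sums, with 11.3 and 18.6 CPM in LLS2 and 1.33 CPM each in LLS3. The scavenger receptor STAB2 was at 55.2 CPM in LLS1, 14.3 CPM in HLS2 and 0 to 2.39 CPM in the other 4 ewes. CLCA2 and MARCO had no UMI over all lymphatic cells, which allows up to 0.426 CPM (counting error only).

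**Figure D1:**
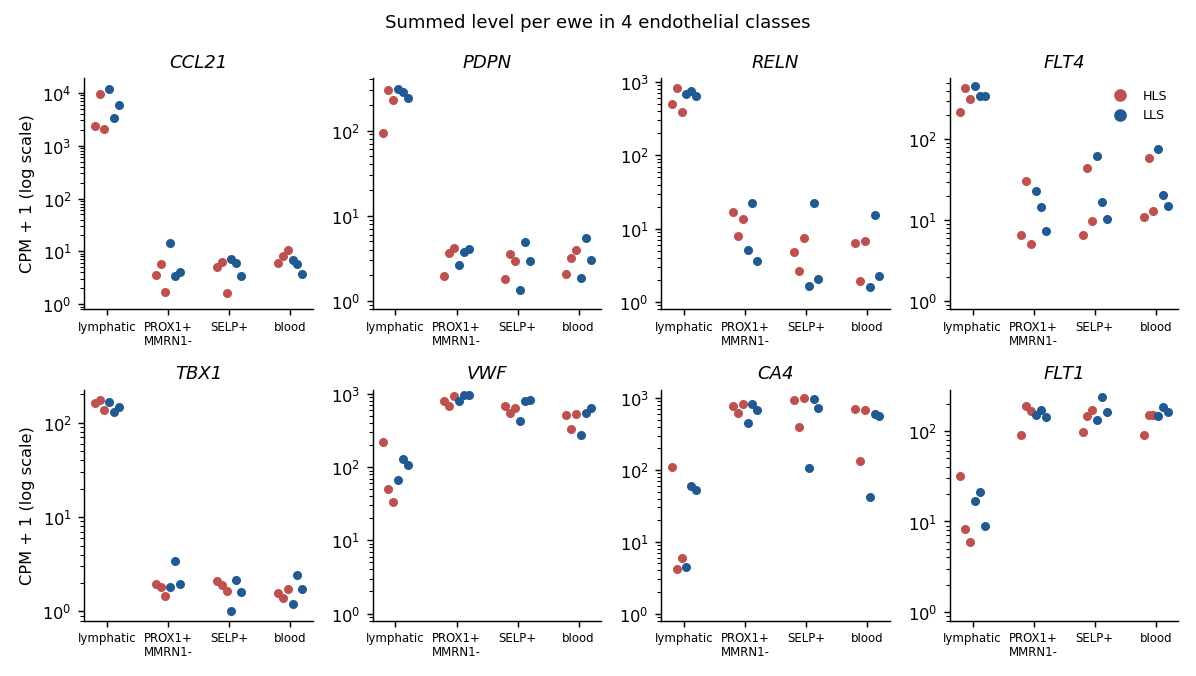
Summed level of 8 genes (CPM + 1, log scale) in each of 6 ewes, 1 point per ewe, in lymphatic, PROX1-positive MMRN1-negative, SELP-positive and blood endothelium, with HLS in red and LLS in blue. CCL21, PDPN, RELN, FLT4 and TBX1 were highest in the lymphatic class, and VWF, CA4 and FLT1 were low there.

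Summed over each ewe and tested with the ewe as a block (edgeR quasi-likelihood test, Benjamini-Hochberg adjusted p under 0.05 over 11599 genes), 1672 genes were higher in lymphatic than in blood endothelium (14.4% of those tested) and 1683 were lower (14.5%), or 3355 in either direction (28.9%). The cells had been split by MMRN1 and PROX1, so the test described which other genes followed that split in the 6 ewes. CCL21 had the largest log2 difference, 9.79 (SE 0.55, adjusted p = 1.96e-06). It was followed by PCSK6, a proprotein convertase, at 9.49 (SE 0.34), and TNFAIP8L3, a carrier of phosphoinositides, at 9.23 (SE 0.37). REEP1 came next at 8.68 (SE 0.36). PCSK6 and REEP1 had only 7 and 12 UMI in all blood endothelium, so the sizes of their folds are imprecise. With a small count added, the log2 difference per ewe ran from 6.58 to 8.89 for PCSK6 and from 5.93 to 7.99 for REEP1. TBX1, a T-box factor required for lymphatic vessel growth, lay at 130 to 172 CPM in all 6 ewes, against 0.683 ± 0.416 CPM in blood endothelium (log2 difference 8.16, SE 0.34, adjusted p = 2.39e-07). The other leading genes were TC2N (8.11), SFRP1 (7.98), SCN3A (7.89), PKHD1L1 (7.80), RELN (7.71), KBTBD11 (7.64) and NR2F1 (7.59), each higher in 6 of 6 ewes.

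Several of these encode secreted proteins. RELN, the reelin glycoprotein that lymphatic endothelium releases towards its muscle cells, lay at 631 ± 160 CPM, against 4.78 ± 5.33 CPM in blood endothelium. SFRP1, a secreted WNT antagonist, lay at 624 CPM on average in lymphatic cells and 71.8 CPM in the stroma, the next highest of 8 classes examined. IGF1, a growth factor of follicles, lay at 578, 972 and 564 CPM in the HLS ewes and 1164, 626 and 1073 CPM in the LLS ewes, against 11.8 CPM in blood endothelium (log2 difference 6.46, SE 0.65) and 179 CPM in the stroma. The lymphatic mean of IGF1 was 4.64 times that of the stroma, its next highest class. PTN, the growth factor pleiotrophin, was at 2847 CPM in lymphatic cells, 42.4 CPM in blood endothelium and 1752 CPM in the stroma, so it separated lymphatic from blood endothelium but much less from stroma. CCDC80, a secreted matrix protein, was at 1202 CPM in lymphatic cells and 141 CPM in the stroma. PTN and CCDC80 were picked after their values had been seen. Of 8 stromal markers listed, 5 were tested against blood endothelium, with a median log2 difference of 0.98 (-0.01 over all genes). COL1A2 was higher, at 126 against 48.5 CPM (1.08, SE 0.27, adjusted p = 0.0125), and the other 4 did not pass the test, PDGFRA (1.15, adjusted p = 0.0501), LUM (0.98, adjusted p = 0.0891), COL1A1 (0.86, adjusted p = 0.135) and COL3A1 (0.82, adjusted p = 0.0912). Against SELP-positive endothelium COL1A2 and COL3A1 were higher of 4 tested (17.9% of all genes). Against PROX1-positive MMRN1-negative endothelium 5 of 5 were higher (18.8% of all genes). The summed stromal markers ran from 147 to 1614 CPM over the ewes in lymphatic cells and from 123 to 361 CPM in blood endothelium, and their part in the levels of IGF1, PTN and CCDC80 was not tested.

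Among 18 transcription factors of lymphatic or endothelial identity, 8 were higher in lymphatic than in blood endothelium, 1 was lower and 9 did not pass the test. Over all genes tested, 14.4% were higher and 14.5% lower. The median log2 difference of the list was 0.44, against -0.01 over all genes tested. NR2F1, a nuclear receptor and paralogue of the venous factor NR2F2, was second to TBX1 in this list (7.59, SE 0.31), with 607, 1196 and 745 CPM in HLS1 to HLS3 and 851, 1145 and 1239 CPM in LLS1 to LLS3, against 5.26 ± 2.39 CPM in blood endothelium. NR2F2, which binds PROX1 in lymphatic specification, was at 478 ± 102 CPM against 167 ± 17.6 CPM (log2 difference 1.46, SE 0.11). Both were also read in stroma, NR2F1 at 167 CPM and NR2F2 at 613 CPM. MAF differed by 4.58 (SE 0.44), the valve regulators FOXC2 by 2.47 (SE 0.46) and NFATC1 by 1.94 (SE 0.20), TAL1 by 1.15 (SE 0.24) and the flow-responsive KLF2 by 0.85 (SE 0.11). FLI1, an ETS factor of blood and endothelial cells, was lower, by -0.69 (SE 0.13). SOX18, the factor that induces PROX1 in the embryo, stood at 264 ± 57.8 CPM in lymphatic and 292 ± 113 CPM in blood endothelium, a log2 difference of -0.14 (SE 0.15, adjusted p = 0.547). GATA2, ERG, HHEX and FOXC1 did not pass the test either.

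The VEGF-C pathway divided by receptor. Of 11 listed genes 7 were tested, of which 2 were higher and 4 lower in lymphatic cells, beside 14.4% and 14.5% of all genes. FLT4 differed by 3.81 on the log2 scale (SE 0.31, adjusted p = 1.37e-05) and NRP2, its co-receptor, by 1.93 (SE 0.17). The receptors of blood-vessel growth were lower. FLT1 (VEGFR1) was at 4.86 to 31.1 CPM in lymphatic sums and 147 ± 30.6 CPM in blood endothelium (log2 difference -3.51, SE 0.32), and the VEGF-A co-receptor NRP1 at 36.5 ± 17.4 against 265 ± 103 CPM (-2.93, SE 0.25). KDR (VEGFR2), which both vessel types use, was less far apart, at 424 ± 106 against 654 ± 262 CPM (-0.61, SE 0.12). Its call was lost without the ewe block (adjusted p = 0.0773). The ligand VEGFC was lower in lymphatic cells (1.22 to 9.29 CPM; -1.78, SE 0.24), with 17.9 CPM in blood endothelium and 35.4 CPM in stroma. VEGFD had no UMI in lymphatic cells. CCBE1, which helps to activate VEGF-C, lay at 0.577 CPM and SVEP1 at 1.81 CPM.

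Of 21 surface and secreted markers of lymphatic endothelium, 16 were tested and 14 were higher (14.4% of all genes), with a median log2 difference of 4.64. SEMA3A, a semaphorin that shapes lymphatic valves, differed by 7.02 (SE 0.19), EFEMP1 by 7.45 (SE 0.57), the fibrocystin-like PKHD1L1 by 7.80 (SE 0.51), SEMA3D by 4.98 (SE 0.27), THY1 by 4.31 (SE 0.42) and STAB1, a scavenger receptor, by 3.10 (SE 0.19). LYVE1, the hyaluronan receptor widely used to stain lymphatic vessels, separated the classes less than these. It lay at 680 ± 259 CPM in lymphatic cells and 285 ± 135 CPM in blood endothelium (log2 difference 1.23, SE 0.28, adjusted p = 0.0078), and was detected in 55.1% of lymphatic cells and 65.3% of blood endothelial cells, or 39.9% and 31.3% after thinning to 2000 UMI. By the share of cells with a UMI, LYVE1 alone did not set lymphatic cells apart in this ovary. The macrophage mannose receptor MRC1, also known from lymphatic endothelium, lay at 40.6 to 183 CPM against 56.2 ± 33.2 CPM, passed the test (adjusted p = 0.0139) and was higher in 5 of 6 ewes. The call of MRC1 was lost without the ewe block (adjusted p = 0.139). SCARA3 was the 1 marker that was lower (-1.45, SE 0.17), and ITGA1 did not pass the test.

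Of 12 tested genes of leukocyte traffic, 5 were higher and 4 lower, beside 14.4% and 14.5% of all genes. Beside CCL21, IL7, the T-cell survival factor made by lymphatic endothelium, was at 9.29 to 39.0 CPM in lymphatic sums and 0.271 ± 0.319 CPM in blood endothelium (log2 difference 7.29, SE 0.68). The atypical receptors that scavenge chemokines were higher, ACKR2 by 6.34 (SE 0.63), ACKR4, which takes up CCL21, by 1.94 (SE 0.27), and ACKR3, which takes up adrenomedullin and CXCL12, by 1.84 (SE 0.14). ACKR2 was uneven between ewes, at 176 CPM in HLS2, 121 CPM in LLS1 and 10.5 to 33.5 CPM in the other 4. The molecules by which blood endothelium captures leukocytes were lower. SELP was at 18.6 ± 17.7 against 166 ± 91.1 CPM (-3.46, SE 0.34), ICAM1 at 18.2 to 90.1 against 185 ± 61.5 CPM (-1.59, SE 0.33), and CXCL12 at 5.91 ± 4.34 against 70.1 ± 29.4 CPM (-3.59, SE 0.31). CCL19, the other ligand of the CCL21 receptor, and SELE had no UMI in any lymphatic sum.

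Genes known from lymphatic valves were mostly higher, 11 of 14 tested with none lower (14.4% and 14.5% of all genes), and a median log2 difference of 1.58. They included the gap-junction genes GJA1 (724 ± 261 against 155 ± 47.8 CPM, log2 difference 2.14, SE 0.27) and GJA4 (1.28, SE 0.22), the fibronectin receptor ITGA9 (2.96, SE 0.21) and the pair EFNB2 (1.26, SE 0.13) and EPHB4 (1.54, SE 0.09). CLDN11, also found in valve cells, was at 65.7 to 108 CPM in 4 ewes and at 274 and 283 CPM in LLS2 and LLS3, and did not pass the test (log2 difference 1.61, SE 0.59, adjusted p = 0.0659). GJA1 was detected in 89.1%, ITGA9 in 64.3%, NFATC1 in 44.5% and FOXC2 in 18.2% of lymphatic cells. In blood endothelium the shares were 59.5%, 24.7%, 15.9% and 3.76%. Whether the valve genes were found together in the same cells was not tested.

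**Figure D2:**
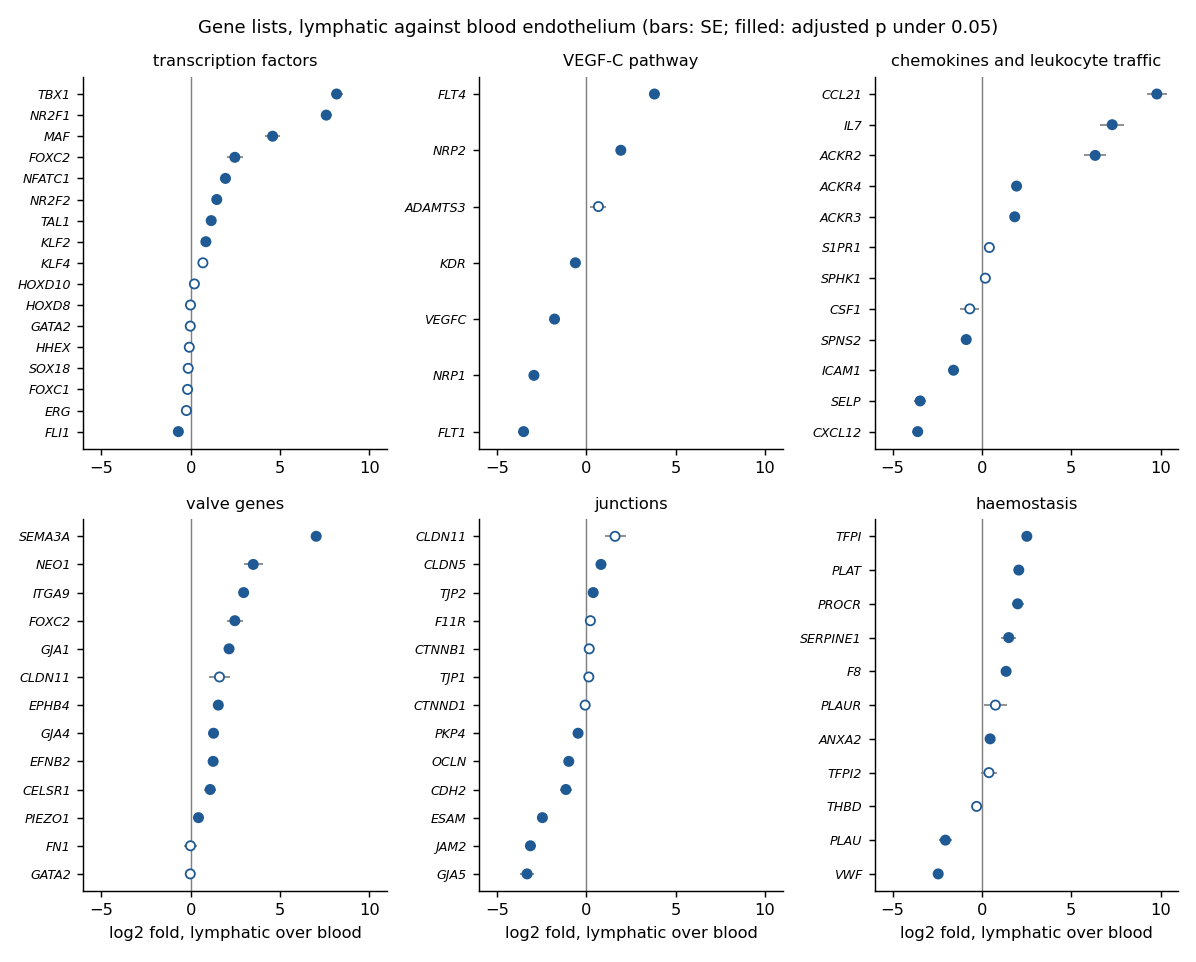
Log2 difference of lymphatic over blood endothelium (horizontal axis, points with SE, fitted over 6 ewes) for tested genes of 6 lists, filled where the adjusted p was under 0.05. CCL21 and TBX1 lie farthest to the right, FLT1 and CXCL12 near the left end, and most valve genes right of 0.

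Junction genes were lower more often than higher (6 against 2 of 13 tested, beside 14.5% and 14.4% of all genes). JAM2 (-3.13, SE 0.29), GJA5 (-3.32, SE 0.41) and ESAM (-2.46, SE 0.25), adhesion and channel proteins of blood vessels, were lower in 6 of 6 ewes. CLDN5, the main endothelial claudin, was at 568 ± 134 against 326 ± 122 CPM, and its call (0.82, SE 0.28, adjusted p = 0.0483) was lost in 7 of the alternative analyses, the highest adjusted p being 0.153. Among the tight-junction partners, F11R, TJP1, CTNNB1 and CTNND1 did not pass the test.

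In BMP and TGF-beta signalling the BMP9 receptor ACVRL1 restrains lymphatic fate. Of 15 tested genes of this pathway 8 were lower and 2 higher, beside 14.5% and 14.4% of all genes. ACVRL1 was at 28.5 ± 12.8 against 87.3 ± 20.3 CPM (-1.70, SE 0.17), its partner ENG at 79.0 ± 28.1 against 328 ± 106 CPM (-2.12, SE 0.20), and the inhibitory target SMAD6 at 0.487 against 10.9 CPM. The ligands BMP2 (2.55, SE 0.20) and BMP6 (3.56, SE 0.57) were higher. The calls of ID1 and ID3, both lower, were lost in several alternative analyses, with adjusted p up to 0.354 and 0.400 (no ewe block). Of 11 tested Notch genes 5 were lower and 2 higher, beside 14.5% and 14.4% of all genes. NOTCH4 (-1.76, SE 0.19), JAG2 (-1.86, SE 0.17), DLL4 and HEY1 (-1.41, SE 0.31) were among the lower ones. NOTCH1 (0.57, SE 0.14) and the target HES1 (1.43, SE 0.14) were higher. The call of NOTCH1 was lost without HLS replicate 1 (adjusted p = 0.0617).

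In the angiopoietin and adrenomedullin systems, both needed for lymphatic development, 2 of 4 and 2 of 5 tested genes were called. Over all genes 28.9% were called, so counts this small say little about either system. ANGPT2 was higher, at 126 to 471 CPM against 90.3 ± 52.9 CPM (1.69, SE 0.25), the TIE-receptor phosphatase PTPRB was lower (-0.98, SE 0.19), and the receptors TEK and TIE1 did not pass the test. The adrenomedullin receptor CALCRL was at 289 ± 107 against 242 ± 49.4 CPM and did not pass the test. The decoy receptor ACKR3 was higher, as given above, and the partner of CALCRL, RAMP2, was at 1331 ± 209.6 against 1024 ± 61.7 CPM (0.32, SE 0.10, adjusted p = 0.0373), a call lost in 8 of the alternative analyses with adjusted p up to 0.146.

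Genes of blood vessels were lower in 16 of 21 tested cases and higher in 2, beside 14.5% and 14.4% of all genes. The 2 higher ones were the water channel AQP1 (2.19, SE 0.58, adjusted p = 0.0179) and TMEM100 (1.89, SE 0.43, adjusted p = 0.0081). The call of AQP1 was lost without HLS replicate 2 or LLS replicate 1 (adjusted p = 0.0888 and 0.0898). CA4, a carbonic anhydrase of capillaries, was at 108 CPM in HLS1, 58.3 in LLS2 and 51.8 in LLS3 but 3.19 to 4.86 CPM in the other 3 lymphatic sums, against 453 ± 291 CPM in blood endothelium (-3.92, SE 0.42). VWF, the clotting factor carrier, was at 99.95 ± 67.8 against 474 ± 143 CPM (-2.44, SE 0.28) and was highest in the same ewes, HLS1 with 217 CPM, LLS2 with 129 CPM and LLS3 with 106 CPM. CD34 (-2.48, SE 0.15), APLN (-3.79, SE 0.36), the lipid transporter MFSD2A (-3.84, SE 0.30) and CYSLTR2 (-3.86, SE 0.34) were lower in 6 of 6 ewes, as were FAM167B, TMEM158 and the interferon-induced chemokine CXCL9. The complement genes C1QC, C1QB and C1QA, made by macrophages, were also among the 12 largest falls (-4.59, -4.26 and -3.84). Summed macrophage markers reached 1216 CPM in the blood endothelium of HLS3 and 921 CPM in that of LLS2, against 74.9 to 133 CPM in the other 4 ewes, and 6.76% of blood endothelial cells (685) carried UMI of these markers, while the lymphatic sums held 14.6 to 117 CPM. Their part in the C1Q difference was not tested.

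In the haemostasis list, 6 of 11 genes were higher and 2 lower, beside 14.4% and 14.5% of all genes. The anticoagulant proteins TFPI (147 ± 43.4 against 27.8 ± 16.7 CPM, 2.52, SE 0.21) and PROCR (104 ± 17.4 against 29.5 ± 16.4 CPM, 2.00, SE 0.33) and the fibrinolytic activator PLAT (2.07, SE 0.25) were higher, as was F8, the clotting factor that endothelium makes (312 ± 112 against 117 ± 40.4 CPM, 1.36, SE 0.19). Its carrier VWF and the activator PLAU (-2.04, SE 0.38) were lower. F8 and VWF thus differed in opposite directions in the same cells.

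Among matrix genes, 9 of 18 tested were higher and 6 lower, beside 14.4% and 14.5% of all genes. The type IV collagens of the blood-vessel basement membrane, COL4A1 (952 ± 406 against 3396 ± 2050.5 CPM, -1.82, SE 0.18) and COL4A2 (-1.76, SE 0.21), SPARC (-2.36, SE 0.14), LAMA5 (-2.07, SE 0.17) and MMRN2 (-3.23, SE 0.41), the paralogue of MMRN1, were lower. LAMA4 (542 ± 128 against 112 ± 24.6 CPM, 2.23, SE 0.12), EMILIN1, an anchoring-filament protein of lymphatic capillaries (3.51, SE 0.24), and TIMP2 (3.21, SE 0.33) were higher. Of the fatty-acid genes, FABP5 stood at 1033, 1331 and 1378 CPM in HLS1 to HLS3 and at 1589, 291 and 785 CPM in LLS1 to LLS3, against 155 ± 196 CPM in blood endothelium (3.76, SE 0.90, adjusted p = 0.0103, higher in 5 of 6 ewes), and CPT1A, which brings fatty acids into mitochondria, was lower (-0.94, SE 0.14).

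Among steroid receptors, the mineralocorticoid receptor NR3C2 was higher (42.0 ± 8.43 against 14.5 ± 10.6 CPM, 2.06, SE 0.52) and the progesterone receptor PGR lower (3.83 ± 2.41 against 11.9 ± 6.64 CPM, -1.50, SE 0.34). The call of NR3C2 was lost without the ewe block (adjusted p = 0.0686). ESR1, ESR2 and FSHR lay at 0.999 to 1.61 CPM on average and were not tested. LHCGR, the luteinising hormone receptor, was at 23.1 ± 29.1 CPM, was seen in 3.49% of lymphatic cells against 25.3% of stromal cells, and did not pass the test. None of 12 cell-cycle genes passed the test, and 2 of 12 immediate early genes did, ATF3 (0.98, SE 0.17) and EGR1 (0.65, SE 0.17), both higher, beside 28.9% of all genes that differed. The call of EGR1 was lost in 5 of the alternative analyses, with adjusted p up to 0.108.

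Against SELP-positive endothelium, the class with the venous selectin, 1883 of 10539 genes were higher (17.9%) and 1877 lower (17.8%), or 3760 in either direction (35.7%). CCL21 (10.51, SE 0.30), TNFAIP8L3 (9.57, SE 0.22), PCSK6 (9.56, SE 0.39), SFRP1 (8.66, SE 0.26) and SCN3A (8.57, SE 0.35) led the higher genes, and CXCL9 (-4.67, SE 0.44), CA4 (-4.63, SE 0.43) and APLN (-4.17, SE 0.33) the lower ones. PCSK6 and SCN3A had only 1 and 6 UMI in all SELP-positive cells, so the sizes of their folds are imprecise. Of the transcription factors 8 were higher and 3 lower, and of the valve genes 10 were higher and none lower. SELP-positive cells were a subset of the blood endothelium, so the values of both comparisons are given side by side.

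PROX1 alone did not mark lymphatic cells in these ovaries. Of 13933 MMRN1-negative endothelial cells, 3806 held PROX1 (27.3%), from 9.54% in LLS1 to 52.6% in HLS1, and up to 35 UMI in 1 cell. At least 1 UMI was also seen in 14.2% of stromal, 14.9% of granulosa and 5.71% of immune cells. The class with at least 2 UMI was the deeper one, with a median of 13411 UMI per cell against 6962 in lymphatic cells. In the class with at least 2 UMI, PROX1 was at 222 CPM over all ewes, against 1174 CPM in lymphatic cells, but CCL21 was at 4.48 CPM, PDPN at 2.38 CPM, TBX1 at 1.07 CPM and FLT4 at 13.5 CPM on average per ewe. VWF was at 860 CPM, CA4 at 690 CPM and PTPRB at 709 CPM in these cells, against 657, 684 and 566 CPM in SELP-positive endothelium. In MMRN1-negative endothelium PROX1 was read higher where CA4 had at least 2 UMI than where CA4 was 0 in each ewe, by an amount that differed between ewes. It lay at 103 and 49.3 CPM in HLS1, 69.4 and 16.3 CPM in HLS2 and 94.3 and 73.3 CPM in HLS3. In LLS1 it lay at 60.5 and 8.14 CPM, in LLS2 at 139 and 80.0 CPM and in LLS3 at 104 and 64.0 CPM. The median depths of both sets were unequal in some ewes, 8933 and 5649 UMI in LLS3 for example. These values were not tested. Stroma, granulosa and immune cells read 21.6, 16.2 and 15.7 CPM of PROX1.

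Tested against these PROX1-positive MMRN1-negative cells, 2027 of 10762 genes were higher in lymphatic cells (18.8%) and 2264 lower (21%), or 4291 in either direction (39.9%). CCL21 (10.34, SE 0.23), SEMA3A (7.32, SE 0.38), PTX3 (7.24, SE 0.40), PDPN (6.47, SE 0.17), RELN (5.89, SE 0.41) and FLT4 (4.85, SE 0.26) were higher in 6 of 6 ewes. CXCL9 (-5.09, SE 0.45), CA4 (-4.87, SE 0.53), CSF3 (-4.42, SE 0.51), SELP (-4.28, SE 0.42), the efflux pump ABCB1 (-4.28, SE 0.49) and VWF (-3.41, SE 0.28) were lower in 6 of 6 ewes. Of the 12 genes leading each comparison upwards, 8 were common to all 3, namely CCL21, PCSK6, TNFAIP8L3, REEP1, TBX1, TC2N, SCN3A and KBTBD11, and of those leading downwards 2 were common, CA4 and CXCL9. The 3 comparisons shared their lymphatic sums.

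Around the limits of the gate, levels changed in steps. CCL21 was at 7919 CPM in the 691 members with more than 3 UMI of MMRN1 and more than 1 of PROX1, 3791 CPM in the 53 members with exactly 3 UMI of MMRN1, 2621 CPM in 45 cells just outside with 2 UMI, 415 CPM in 163 cells with 1 UMI, and 3.34 CPM in the 3806 cells with none. VWF went from 72.8 to 253, 715, 795 and 767 CPM along the same 5 groups. The 55 cells with at least 3 UMI of MMRN1 but no PROX1 had 931 CPM of CCL21 and 692 CPM of VWF. The 11 cells that met both limits but not the balance against DCN and PTPRC had 5046 CPM of CCL21 and 8059 CPM of COL1A1. These values chose or bordered the members, were pooled over ewes and were not tested.

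**Figure D3:**
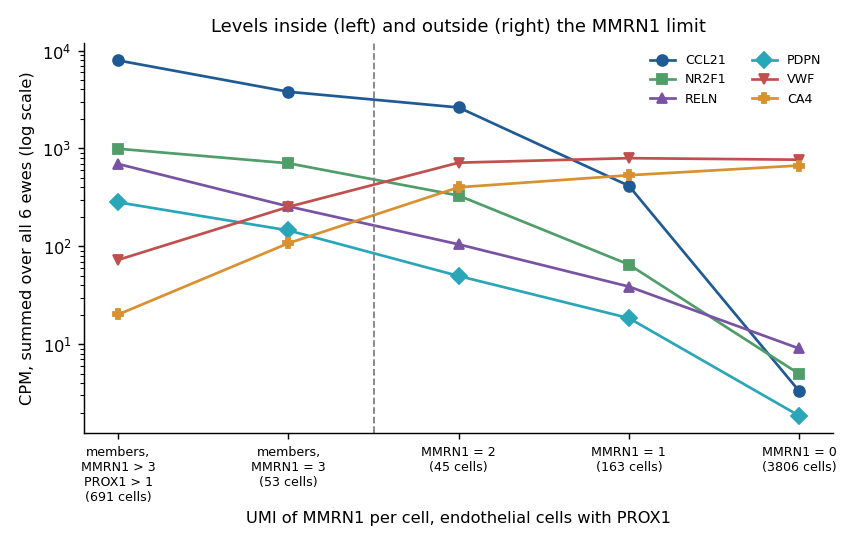
Level (CPM summed over all 6 ewes, log scale) of 6 genes in endothelial cells with PROX1, by UMI of MMRN1, with the number of cells in each group; groups left of the dashed line were counted as lymphatic. CCL21 fell from 7919 to 3.34 CPM from left to right, and VWF was 72.8 CPM at the left end and 767 CPM at the right.

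Lymphatic cells varied in their CCL21 content. Per 10000 UMI of a cell, CCL21 had a median of 19.9, quartiles of 2.19 and 78.2 and a highest value of 874, and 151 of 773 cells held none. The median per ewe ran from 9.74 in HLS1 to 51.8 in HLS2, and every ewe had cells with and cells without CCL21 (7 to 56 cells without). LYVE1 was absent from 37.5% to 61.6% of the lymphatic cells of each ewe, with a 90th percentile of 20.4 to 37.1. RELN was more even, with a median between 4.99 and 8.01 in every ewe and 8.41% of cells without it.

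Other genes were concentrated in few lymphatic cells. For each gene the 10% of cells with the most UMI of that gene were taken. They held 93.1% of the 1566 UMI of GSTA1, a detoxification enzyme seen in 185 cells, 87.1% of the 604 UMI of the growth factor IGF2, seen in 155 cells, and 81.5% of the 1431 UMI of the stromal COL1A1, seen in 315 cells. These genes were listed by their spread after the values had been seen.

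**Figure D4:**
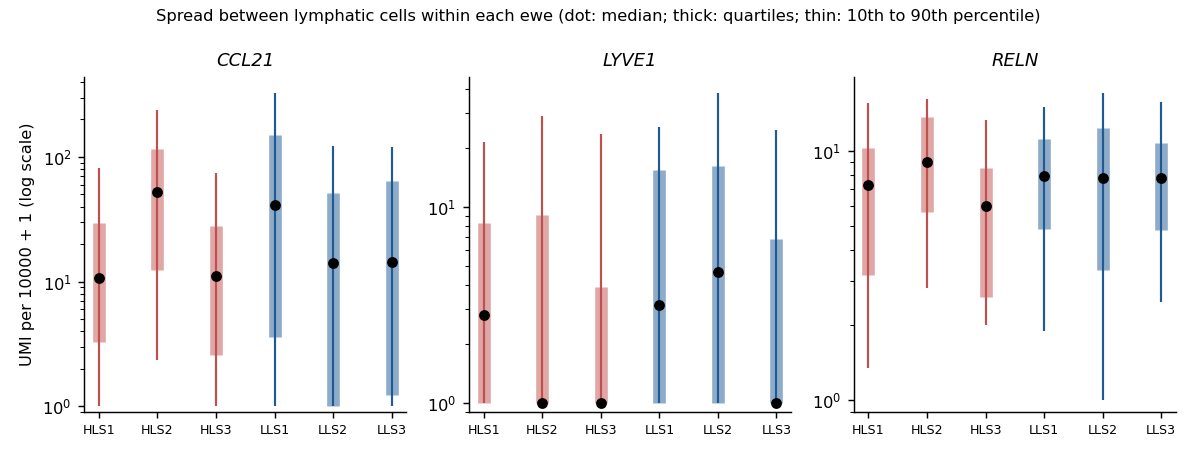
UMI per 10000 (plus 1, log scale) of CCL21, LYVE1 and RELN in the lymphatic cells of each ewe, with the median as a dot, quartiles as a thick bar and the 10th to 90th percentile as a thin line. CCL21 medians ran from 9.74 to 51.8, whereas RELN medians stayed between 4.99 and 8.01.

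The lymphatic cells of HLS3 stood apart in cell-cycle genes. The summed level of 12 such genes was 490, 401 and 1583 CPM in HLS1 to HLS3 and 373, 168 and 451 CPM in LLS1 to LLS3, so HLS3 lay above all other ewes, which overlapped. In blood endothelium HLS3 was at 546 CPM, within the 306 to 696 CPM of the other ewes. HLS against LLS gave 825 ± 658 against 331 ± 146 CPM (n = 3 each, 2-sided exact permutation p = 0.2, smallest possible 0.1). In the edgeR test of HLS against LLS, 12 of these 12 genes lay above 0 (median log2 difference 1.68, against 0.01 over all genes). Of the 12, 10 had an unadjusted p under 0.05 (6.34% of all genes) and 3 did not overlap (13% of all genes). None passed after adjustment, and the part of HLS3 in these differences was not tested. HLS3 also held the most stromal marker UMI in its lymphatic sum, 1614 CPM against 147 to 1163 CPM in the other ewes, and the most called doublets, 15.8%, against 0% to 11.1%. The part of stromal UMI and of doublets in the cell-cycle level was not tested.

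The comparison of prolific and less prolific ewes asked whether lymphatic cells differed in number or in state. Of all barcodes within the limits, lymphatic cells made up 0.707%, 1.78% and 0.978% in HLS1 to HLS3 and 3.28%, 3.96% and 1.48% in LLS1 to LLS3. Both groups overlapped, since HLS2 lay above LLS3. The mean was 1.16% ± 0.56 in HLS and 2.91% ± 1.28 in LLS (SD, n = 3 each), a difference of -1.75 percentage points (2-sided exact permutation p = 0.2, adjusted over both shares p = 0.3). Among endothelial-marked barcodes the share was 3.63% ± 1.43 in HLS and 7.71% ± 5.77 in LLS (exact permutation p = 0.3), with LLS2 at 14.3% and the other 5 ewes at 2.11% to 5.34%. Without LLS2 the difference fell from -4.08 to -0.80 percentage points. With 3 ewes against 3 the smallest p this test can give is 0.1. The number of cells released by digestion and the number in the tissue cannot be told apart here.

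**Figure D5:**
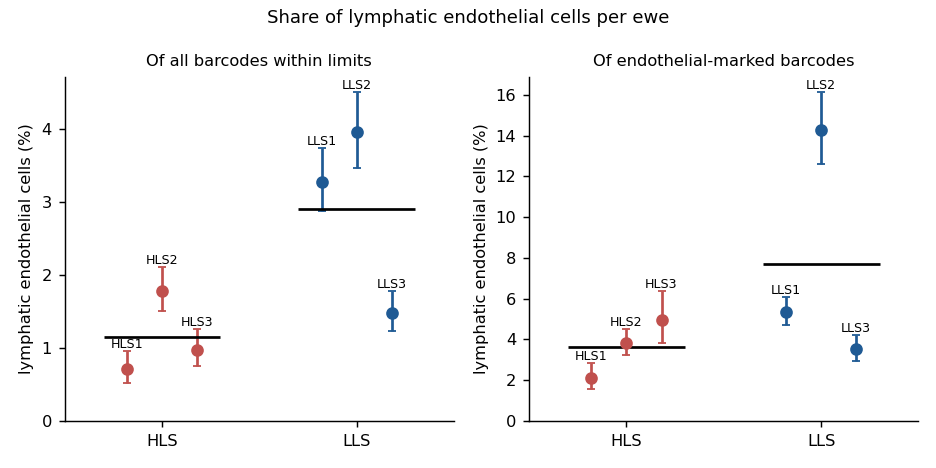
Lymphatic endothelial cells as a percentage of all barcodes within limits (left) and of endothelial-marked barcodes (right), 1 point per ewe with its 95% Wilson interval (counting error only) and the group mean as a line. HLS2 lies above LLS3 on the left, and LLS2, at 14.3%, lies far above the others on the right.

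Within lymphatic cells, 0 of 8821 genes (0%) passed the test between HLS and LLS with edgeR, with 559 at an unadjusted p under 0.05 (6.34%) and a smallest adjusted p of 0.726, while DESeq2 called 7. The groups did not overlap for 1147 genes (13%). CCL21 was at 4612 CPM on average in HLS and 7134 CPM in LLS, a log2 difference of -0.55 (SE 0.60, adjusted p = 0.853). The intervals of 2 SE around the differences of FLT4 (-0.16, from -0.69 to 0.38), PDPN (-0.35, from -1.01 to 0.31), RELN (-0.20, from -0.80 to 0.40) and IGF1 (-0.34, from -0.98 to 0.29) all covered 0. The gene with the smallest p was FXYD6, a regulator of the sodium pump, at 23.9, 15.1 and 45.0 CPM in HLS1 to HLS3 and 144, 104 and 108 CPM in LLS1 to LLS3 (-2.03, SE 0.36, adjusted p = 0.726). COL8A1 and SBSPON were lower in HLS in the same way, without overlap, and PTTG1 and ADM were higher without overlap, all at adjusted p of 0.726 or 0.759. ANGPT2 lay at 306, 376 and 471 CPM in HLS1 to HLS3 and 285, 126 and 192 CPM in LLS1 to LLS3 (1.01, SE 0.30, adjusted p = 0.759). These genes were picked after their values had been seen, and none passed the edgeR test after adjustment, while FXYD6, SBSPON and PTTG1 were among the 7 that DESeq2 called.

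The change from LLS to HLS was also compared between lymphatic and blood endothelium. Of 12648 genes, 0 showed an interaction of class and group at an adjusted p under 0.05 (0%), with 433 at an unadjusted p under 0.05 (3.42%), and DESeq2 called 0.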

How the data were processed

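The deposited files held raw UMI counts by gene and barcode, made by the authors with Cell Ranger 5.0.0 (STAR), 1 library per ewe. The genome build was not given in the sources used here. Counts were used as deposited, and mitochondrial genes were the 37 rows named KEF53_. Overlapping genes and genes with near-identical copies are uncertain.

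Cells were gated as described, UMI were summed per ewe and class (at least 10 cells), genes with low counts were removed with filterByExpr, and TMM-scaled sums went into edgeR 4.0.16 (R 4.3.3; quasi-likelihood F test, Benjamini-Hochberg adjustment), with the ewe as a block between classes. The 6 gate genes were left out of the test. DESeq2 1.42.0 was an alternative. Shares were compared with a 2-sided exact permutation test (scipy 1.17.1). Doublets were scored with scrublet in scanpy 1.11.5 and the highest scores called (0.8% per 1000 barcodes). They were kept in the main analysis and left out in an alternative. The test was also run on counts simulated from its own fitted dispersions, which cannot test that model. The outcome is not given here.

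The members and gene lists were chosen with earlier results of these data known. Named genes were the listed genes and, per comparison, the 12 largest differences in each direction among genes past the threshold with a symbol, the same sign in 6 ewes and a mean of at least 50 CPM in the higher class. The class of PROX1-positive MMRN1-negative cells, the limit on markers of other cell types and a blood gate without a limit on PROX1 were added after seeing the data. Of the listed symbols, 8 had no row by that name. Values of some listed genes are not reported here.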

Additional observations from a re-analysis of the deposited data

How the results depend on the processing

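Against blood endothelium, the count of genes that differed ran from 2491 (no ewe block) to 4099 (no filter on low counts), within 1.5 times the main count. Leaving out 1 ewe gave 2638 to 3855 genes against blood endothelium, 3102 to 3763 against SELP-positive and 3595 to 4131 against PROX1-positive MMRN1-negative endothelium. Limited to cells with few markers of other types (377 lymphatic and 5480 blood cells, added after seeing the data), 2617 genes were called against blood endothelium, 2496 against SELP-positive and 2792 against PROX1-positive MMRN1-negative endothelium, from fewer genes tested (8838, 7006 and 8290), and 1, 3 and 6 of the main calls turned their sign. Of 134 named genes in the blood comparison, 23 lost the call in at least 1 setting, 0 reversed, and 111 kept call and direction in every setting that gave them a value. Of the 134, 14 had no value in at least 1 setting, and 99 kept the call with a value in all. The 24 leading genes lost no call, and 21 of them had a value in all. Between HLS and LLS, edgeR called 0 genes in the main analysis, DESeq2 called 7 (among them FXYD6, SBSPON, PTTG1 and UBE2C), and 155 were called without the filter on low counts, the cause of which was not tested. Leaving out 1 ewe gave 0 to 5, the 5 (CD74 and others, all lower in HLS) without LLS replicate 1. In lymphatic cells macrophage markers summed to 14.6 to 26.3 CPM in HLS and 14.9 to 117 CPM in LLS, and lymphocyte markers to 0 to 3.65 and 5.31 to 26.7 CPM, and their part in CD74 was not tested. The interaction gave 0 genes, 10 without the filter, and 0 to 0 when leaving out 1 ewe. The share of lymphatic cells differed by -1.75 percentage points of all barcodes, with -2.47 to -1.23 when leaving out 1 ewe and -0.63 after thinning to 1000 UMI, and by -4.08 of endothelial barcodes, with -6.18 to -0.80. With the replicate number as a block, HLS against LLS gave 0 genes, with 611 at an unadjusted p under 0.05. Deviations of same-numbered ewes correlated at -0.11, 0.03 and 0.08, and those of ewes with unlike numbers at -0.149 to 0.118. With 3 ewes per group these values cannot tell whether the numbers paired the ewes. The few cells of HLS1 (40) and HLS3 (57) limited the precision.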
